A study of Mus musculus with 6 samples.

Results

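The cell cycle and DNA replication genes described here are 39 of the 21492 genes in the expression table of osteoclasts (OCs) that lack the C-type lectin receptor DCIR. They were taken from the table by symbol from a written list of cyclins, cyclin-dependent kinases (CDKs), CDK inhibitors, S phase genes and G2/M genes. All 39 were found, and 38 were expressed enough to be tested. RNA was sequenced from 3 libraries of Dcir-/- OCs, numbered 21, 22 and 83, and 3 libraries of WT OCs, numbered 3, 82 and 94. All 6 were labelled C57BL/6J, and OCs of both genotypes were grown from macrophages of the bone marrow. The growth factor M-CSF was given at 20 ng/ml, and RANKL, the factor that turns macrophages into OCs, at 100 ng/ml. The labels give day 4 with 2 days of RANKL, whereas the study's methods give 4 days with both factors. Dcir-/- mice had been backcrossed to C57BL/6J and lack the receptor in every cell. The young adult WT mice, matched for age and sex, were bought from a supplier and kept beside the Dcir-/- mice before use, so that the source of the animals and their genotype cannot be told apart. No label or method says whether each library had a mouse or a culture of its own. The p-values thus reflect the scatter of 3 libraries a genotype, and part or all of it may be technical.

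The cell cycle is driven by CDKs that are switched on by cyclins. In G1, growth factors such as M-CSF raise D-type cyclins, which with CDK4 and CDK6 free E2F transcription factors from the Rb protein, and E2F then turns on the genes of DNA replication. Later, FOXM1, B-MYB and the MuvB complex turn on the genes of G2 and mitosis. Macrophage precursors divide in response to M-CSF, whereas OCs arise by fusion of these precursors and no longer divide, so that in a culture of OCs the cycling cells are mostly unfused ones. CDK inhibitors such as p21 and p27 hold cells in G1 and accompany the arrest that precedes fusion.

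The deposited values are adjusted counts, which the authors brought to a common library size. Their totals are 33035020.2 to 34068308.6 for Dcir-/- libraries and 33155299.7 to 33931297.4 for WT libraries, so the depth of a single library is unknown. Values are given as CPM, for which each adjusted count was scaled to the mean total of 33577739.2, so that 1 CPM is 33.6 adjusted counts. Clec4a2, the gene of DCIR, was at 0.788, 1.15 and 0.496 CPM in Dcir-/- libraries 21, 22 and 83, against 275, 239 and 289 CPM in WT libraries 3, 82 and 94, as the labels give it. OC markers were high in all 6 libraries, with the protease gene Ctsk at 2990.3 to 3657.8 CPM in Dcir-/- OCs and at 2874.7 to 3451.7 CPM in WT OCs. WT libraries 3 and 94 stood apart from the rest in a principal component analysis of all tested genes, with WT library 3 at the end of the leading component (53.5% of the variance) while WT library 94 lay at the end of the following one (27.5%). Dcir-/- library 21 lay at the opposite end of the leading component, at -22.4, against -7.5 and -8.4 for Dcir-/- libraries 22 and 83. Many results turn on the values of WT libraries 3 and 94, and such results for the 39 genes are given with and without them. The direction of the difference turned for 16 of the 38 tested genes without WT library 3 and for 6 without WT library 94. It turned for 7 without Dcir-/- library 22.

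The stretches of promoter shown first are those of cell cycle genes whose values moved together among the libraries, and of a few that did not. RefSeq windows on GRCm38.p6, read on the strand of each gene, were matched by symbol to 31 of the 39 genes. Foxm1, Mcm4, Ccna2, Ccnd2, Ccnd1, Aurkb, Ccne2 and Tpx2 had none. The 250 bases before each start were searched on both strands for TTTGAA, the cell cycle homology region (CHR) bound by MuvB, for the CCAAT box bound by NF-Y, and for E2F sites of the form TTCCCGC or, as another form searched separately, TTGGCGC. The reverse complement of the TTGGCGC form ends in letters that a CCAAT box can share. The next 4 lines give the 150 bases before the start of Ube2c at chr2:164769779-164769928 (plus strand), Cdc20 at chr4:118437344-118437493 (minus strand), Ccnb2 at chr9:70421555-70421704 (minus strand) and Cdk1 at chr10:69352913-69353062 (minus strand). Capitals mark the CCAAT box and the CHR, each as spelled above or as its reverse complement.
Ube2c: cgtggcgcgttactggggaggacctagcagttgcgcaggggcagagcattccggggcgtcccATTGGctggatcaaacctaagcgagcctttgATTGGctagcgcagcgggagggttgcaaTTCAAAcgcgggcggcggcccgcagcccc
Cdc20: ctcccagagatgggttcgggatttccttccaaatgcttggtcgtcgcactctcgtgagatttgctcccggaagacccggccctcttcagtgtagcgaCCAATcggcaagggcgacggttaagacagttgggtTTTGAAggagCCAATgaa
Ccnb2: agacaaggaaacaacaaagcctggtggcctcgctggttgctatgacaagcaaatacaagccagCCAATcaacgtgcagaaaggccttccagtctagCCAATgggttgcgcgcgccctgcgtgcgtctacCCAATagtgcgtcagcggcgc
Cdk1: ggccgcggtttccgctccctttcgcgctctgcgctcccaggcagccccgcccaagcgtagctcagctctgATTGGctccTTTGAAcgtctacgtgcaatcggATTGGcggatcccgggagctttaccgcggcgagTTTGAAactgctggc

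Ube2c, Cdc20 and Cdk1 hold CHR letters close to the start with a CCAAT box upstream, whereas the CHR letters of Ccnb2 lie further from the start than the stretch shown. CHR letters were found for 7 of the 13 G2/M genes with a window (Ccnb2, Cdc20, Cdk1, Kif11, Mki67, Top2a and Ube2c, 53.8%), against 18.3% of the 27025 genes with a window and 13.3% of the 9899 of them that were tested. Among S phase genes 1 of 11 (Mcm2, 9.09%) held them, and 0 of 7 G1 regulators did. CCAAT letters were found for 12 of 13 G2/M genes (92.3%), 8 of 11 S phase genes (72.7%) and 3 of 7 G1 regulators (42.9%), against 40.4% of the tested genes. An E2F site of either form was found for 4 of 11 S phase genes (Mcm5, Mcm6, Mcm7 and Rrm1, 36.4%), 3 of 13 G2/M genes (23.1%) and 2 of 7 G1 regulators (28.6%), against 11.6% of the tested genes. These are matches of letters in a window and not measured binding.

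MCM helicase genes and some G1 regulators are shown for comparison. Only stretches that hold a match are printed, whereas those of Birc5 and of the upstream Ccnd3 window hold none in these 150 bases and are not shown. The stretches are those of Mcm6 at chr1:128359706-128359855 (minus strand), Mcm5 at chr8:75109359-75109508 (plus strand), Mcm3 at chr1:20820313-20820462 (minus strand), Ccnd3 (the downstream of its 2 windows) at chr17:47593317-47593466 (plus strand) and Cdkn1b at chr6:134920251-134920400 (plus strand). Capitals mark the CCAAT box and the E2F site that begins with TTGG, each as spelled above or as its reverse complement.
Mcm6: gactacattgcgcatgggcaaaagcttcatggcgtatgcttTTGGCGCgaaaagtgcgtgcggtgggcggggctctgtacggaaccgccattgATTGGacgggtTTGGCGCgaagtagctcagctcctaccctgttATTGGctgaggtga
Mcm5: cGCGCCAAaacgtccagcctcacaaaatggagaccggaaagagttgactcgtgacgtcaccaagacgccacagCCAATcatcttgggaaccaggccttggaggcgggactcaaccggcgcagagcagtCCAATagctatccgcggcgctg
Mcm3: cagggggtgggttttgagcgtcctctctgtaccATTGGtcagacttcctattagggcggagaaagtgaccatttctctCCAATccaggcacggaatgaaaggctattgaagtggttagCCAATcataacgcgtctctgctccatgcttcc
Ccnd3: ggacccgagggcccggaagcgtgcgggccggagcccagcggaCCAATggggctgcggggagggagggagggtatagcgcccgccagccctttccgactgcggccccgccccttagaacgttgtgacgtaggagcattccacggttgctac
Cdkn1b: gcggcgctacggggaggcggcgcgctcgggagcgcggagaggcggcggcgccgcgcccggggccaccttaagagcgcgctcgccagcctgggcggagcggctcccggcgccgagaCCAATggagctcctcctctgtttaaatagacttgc

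Of the 38 tested genes, 0 passed an adjusted p under 0.05 from limma (Benjamini-Hochberg over all 14047 tested genes), where 0.441% of all tested genes passed, and 0 passed at 0.1, where 0.797% did. The smallest adjusted p among them was 0.125, that of Ccnd3. At an unadjusted p under 0.05 from limma, 5 genes (13.2%) were found, where 12.5% of all tested genes were: Foxm1 and Cdkn1b with the higher mean in Dcir-/- OCs (5.82% of all tested genes), and Ccnd1, Ccnd3 and Mcm3 with the lower (6.68%). The 3 values of each genotype did not overlap for 8 genes (21.1%), where this was so for 19.8% of all tested genes. Foxm1, Cdkn1b and Cdk2 were higher in every Dcir-/- library than in every WT library (10.5% of all tested genes were), and Ccnd1, Ccnd3, Cdkn1a, Mcm3 and Pcna were lower (9.34% of all tested genes were). Over the 38 genes both shares lie near those of all genes. By class, genotypes did not overlap for 5 of 8 tested G1 regulators (62.5%), 2 of 13 S phase genes (15.4%) and 1 of 17 G2/M genes (5.88%). The genes were chosen with earlier results known, and this split by class was not tested. The mean of log2(CPM + 1) was higher in Dcir-/- OCs for 25 genes and lower for 13 (65.8% higher, against 53.9% of all tested genes), and the median log2 fold change, which is Dcir-/- over WT OCs on the log2(CPM + 1) scale throughout, was 0.03. Without WT library 3 the mean was higher in Dcir-/- OCs for 9 of the 38, without WT library 94 for 31, and without Dcir-/- library 22 for 18.

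**Figure D1:**
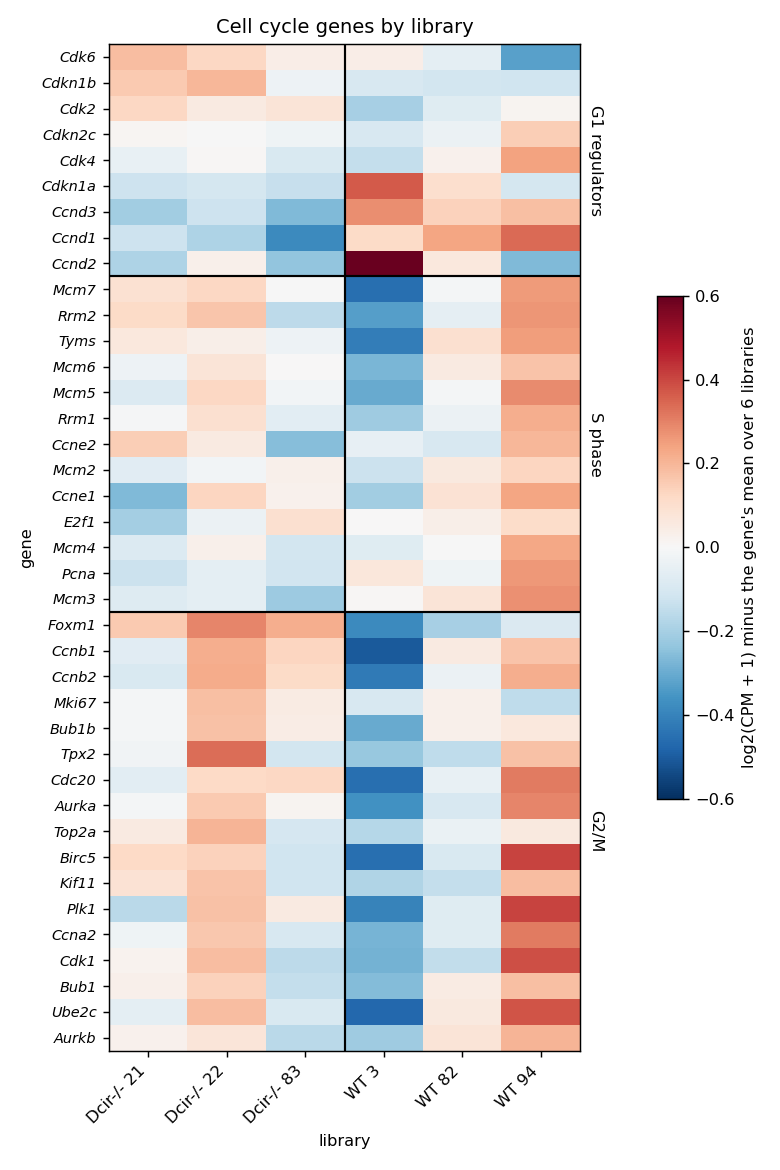
Each row is a cell cycle gene and each column a library, Dcir-/- libraries left of WT ones; the colour gives log2(CPM + 1) minus the mean of that gene over the 6 libraries, and values beyond 0.6 in size take the end colour. Within each class genes run by log2 fold change, from the highest down. Most S phase and G2/M genes are highest in WT library 94, WT library 3 is the lowest for 16 of the 17 G2/M genes and 7 of the 13 S phase genes, and the G2/M genes are also high in Dcir-/- library 22.

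The widest differences lay among the WT libraries. WT library 3 was the lowest of all 6 for 26 of the 38 genes (68.4%), where it was for 31.2% of all tested genes, and WT library 94 was the highest for 26 (68.4%), where it was for 28.8%. Both held for 19 genes (50%, against 14.5%). For 19 genes (50%, against 29.6%) all 3 Dcir-/- values lay inside the range of the WT values. The ratio of the highest to the lowest library of a genotype had a median of 1.15 in Dcir-/- OCs and 1.35 in WT OCs over these genes, and of 1.14 in Dcir-/- OCs and 1.26 in WT OCs over all tested genes. How many genes were higher depended on both libraries compared. Dcir-/- libraries 21, 22 and 83 were higher than WT library 3 for 30, 32 and 30 of the 38 genes. Of all tested genes they were higher for 56%, 55% and 56%. Against WT library 82 they were higher for 16, 28 and 16 (52.6%, 50.8% and 52.6% of all tested genes). Against WT library 94 they were higher for 5, 10 and 5 (48%, 48.8% and 48.4% of all tested genes).

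Averaged over the genes of each class, the deviation from the mean of 6 libraries, in log2 units, was 0.00, 0.18 and -0.02 for the 17 G2/M genes in Dcir-/- libraries 21, 22 and 83, against -0.32, -0.05 and 0.21 in WT libraries 3, 82 and 94. The 13 S phase genes gave -0.04, 0.05 and -0.06 in the Dcir-/- libraries, against -0.18, 0.01 and 0.22 in the WT libraries. Both classes ran in order from WT library 3 at the low end to WT library 94 at the high end, with Dcir-/- library 22 next to the top. The 8 tested G1 regulators, whose members differed in direction, averaged 0.00, 0.00 and -0.10 in the Dcir-/- libraries, against 0.03, 0.03 and 0.05 in the WT libraries. The G2/M deviation minus the S phase deviation was 0.04, 0.13 and 0.04 in Dcir-/- OCs, against -0.14, -0.06 and -0.01 in WT OCs, and the genotypes did not overlap in this difference, which was chosen after the values were seen and was not tested.

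**Figure D2:**
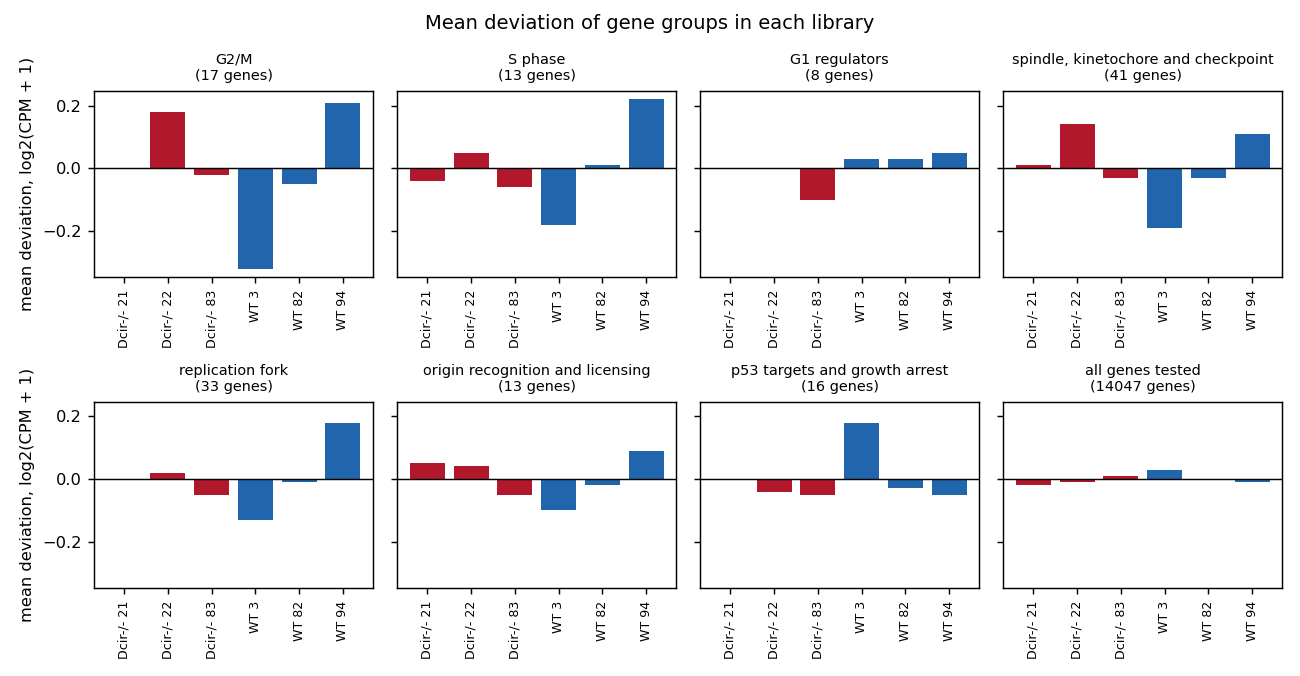
Bars give, for each library, the mean deviation of log2(CPM + 1) from the mean over 6 libraries, for groups of cell cycle genes and for all tested genes; red bars are Dcir-/- libraries and blue bars WT libraries. The G2/M bars run from -0.32 in WT library 3 to 0.21 in WT library 94 with 0.18 in Dcir-/- library 22, whereas those of all tested genes stay between -0.02 and 0.03.

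The libraries also differed in markers of other cells, with summed levels given here over each whole list. The 12 macrophage markers summed to 4174.7 to 4484.2 CPM in Dcir-/- OCs and to 6189.1, 4914.3 and 4549 CPM in WT libraries 3, 82 and 94; all 12 had a lower mean in Dcir-/- OCs, the median log2 fold change was -0.76, and C1qa, C1qc and Marco passed an adjusted p under 0.05 from limma. The 8 monocyte markers summed to 139.8 to 150 CPM in Dcir-/- OCs and to 289, 235 and 196 CPM in those WT libraries, with 6 lower and a median log2 fold change of -0.77. The 9 myeloid progenitor markers, of which Flt3 was under 1 CPM in every library, summed to 26.3 to 30.4 CPM in Dcir-/- OCs and to 54.2, 34.7 and 37.8 CPM in WT OCs, with 7 of 7 tested ones lower (median -0.46) and 0 past the test (limma). Cd34 of that list, near 1 CPM and not tested, went the other way. It was at 1.07, 1.06 and 0.977 CPM in Dcir-/- OCs, against 0.588, 0.161 and 0.301 CPM in WT OCs, with no overlap. WT library 3, with the lowest cell cycle values, held the highest sum of all 3 lists. WT library 94, with the highest cell cycle values on average, also had a higher sum than every Dcir-/- library in all 3 lists. The 9 neutrophil markers, of which Ly6g was under 1 CPM in every library, summed to 336.5 to 443 CPM in Dcir-/- OCs and to 730, 605 and 753 CPM in WT OCs, with all 8 tested ones lower (median -0.91) and 4 of them past the test. The 12 OC markers summed to 24691.1, 18890.7 and 20289.9 CPM in Dcir-/- libraries 21, 22 and 83, and to 18475.2, 19326.3 and 20849 CPM in WT OCs, with 11 higher, 1 lower (median 0.15) and 0 past the test. Their part in the values of the cell cycle genes was not tested. In such bulk samples fewer cycling cells and less of their RNA per cell cannot be told apart.

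Of the 8 tested G1 regulators 3 had a higher and 5 a lower mean in Dcir-/- OCs, and their log2 fold changes had a median of -0.05 (-0.09 without WT library 3 and 0.04 without WT library 94). Among them the D-type cyclins, which link growth factors to CDK4 and CDK6, had the lowest fold changes. Ccnd1 was at 16.3, 15.5 and 13.4 CPM in Dcir-/- libraries 21, 22 and 83, against 19.4, 21.2 and 22.8 CPM in WT libraries 3, 82 and 94. Every Dcir-/- value lay below every WT value. Its log2 fold change was -0.46 (SE 0.11, 95% CI -0.72 to -0.21, adjusted p = 0.158 from limma). Ccnd3 was at 28.3, 30.1 and 27.2 CPM in the Dcir-/- libraries, against 40.1, 36.3 and 37.5 CPM in the WT libraries, again with no overlap. Its log2 fold change was -0.40 (SE 0.09, 95% CI -0.60 to -0.20, adjusted p = 0.125 from limma). Unlike most of the genes, Ccnd3 was highest in WT library 3, and neither cyclin changed direction when any 1 library was left out (-0.52 to -0.39 for Ccnd1 and -0.44 to -0.36 for Ccnd3). Ccnd2, the remaining D-type cyclin, was near the filter of 1 CPM at 0.442, 0.675 and 0.394 CPM in Dcir-/- OCs, against 1.47, 0.715 and 0.363 CPM in WT OCs, and was not tested. Summed over the 3 genes, D-type cyclin RNA was at 45.1, 46.3 and 41 CPM in Dcir-/- OCs and at 61, 58.2 and 60.6 CPM in WT OCs. Exons of Ccnd1 and Ccnd3 overlap those of a gene on the opposite strand, LTO1 over 23.4% and Bysl over 4.1% of their exon length. For LTO1 the log2 fold change was -0.20 (SE 0.09, adjusted p = 0.427 from limma), for Bysl -0.13 (SE 0.11, adjusted p = 0.690 from limma), and reads of such a pair cannot be told apart if strand was not used in counting, which is not stated.

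The CDKs of G1 and S phase gave smaller differences than the cyclins. Cdk4 was at 156, 162 and 151 CPM in Dcir-/- OCs, against 146, 164 and 191 CPM in WT OCs, with all Dcir-/- values inside the WT range. Cdk6 was at 136, 131 and 123 CPM in Dcir-/- OCs, against 123, 115 and 95.2 CPM in WT OCs, where the highest WT library met the lowest Dcir-/- one (log2 fold change 0.23, SE 0.10, adjusted p = 0.413 from limma). Both encode the partners of D-type cyclins. Cdk2, whose protein works with E- and A-type cyclins, was at 51.4, 48.9 and 49.8 CPM in Dcir-/- OCs, against 40.9, 44.7 and 47.7 CPM in WT OCs. The genotypes did not overlap, but the log2 fold change was 0.17 (SE 0.09, adjusted p = 0.472 from limma). Per kilobase of exon, Cdk4 had the highest level of all 39 genes, at 48.1 CPM per kb in Dcir-/- OCs and 51.3 CPM per kb in WT OCs, and Ccnd2 the lowest.

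The CDK inhibitors differed from each other in direction. Cdkn1b, which encodes p27, was at 113, 117 and 99.1 CPM in Dcir-/- OCs, against 94.9, 94 and 93.1 CPM in WT OCs, with no overlap and with WT libraries that lay within 2 CPM of each other. Its log2 fold change was 0.22 (SE 0.08, 95% CI 0.03 to 0.40, adjusted p = 0.335 from limma). Cdkn1a, which encodes the p53 target p21, was at 104, 105 and 103 CPM in Dcir-/- OCs, against 146, 121 and 105 CPM in WT OCs. The Dcir-/- values lay just below the lowest WT value, and the distance came mainly from WT library 3, in which the 16 genes of the list of p53 targets and growth arrest also deviated most (-0.05 to 0.00 on average in the Dcir-/- libraries, 0.18 in WT library 3 and -0.05 to -0.03 in the other WT libraries). Its log2 fold change was -0.24 (SE 0.11, adjusted p = 0.435 from limma) and -0.12 without WT library 3. Cdkn2c, which encodes p18, an inhibitor of CDK4 and CDK6, was at 46.3, 45.9 and 45.1 CPM in Dcir-/- OCs, against 42.9, 44.7 and 51.1 CPM in WT OCs, with Dcir-/- values inside the WT range and a log2 fold change of -0.01 (SE 0.09).

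**Figure D3:**
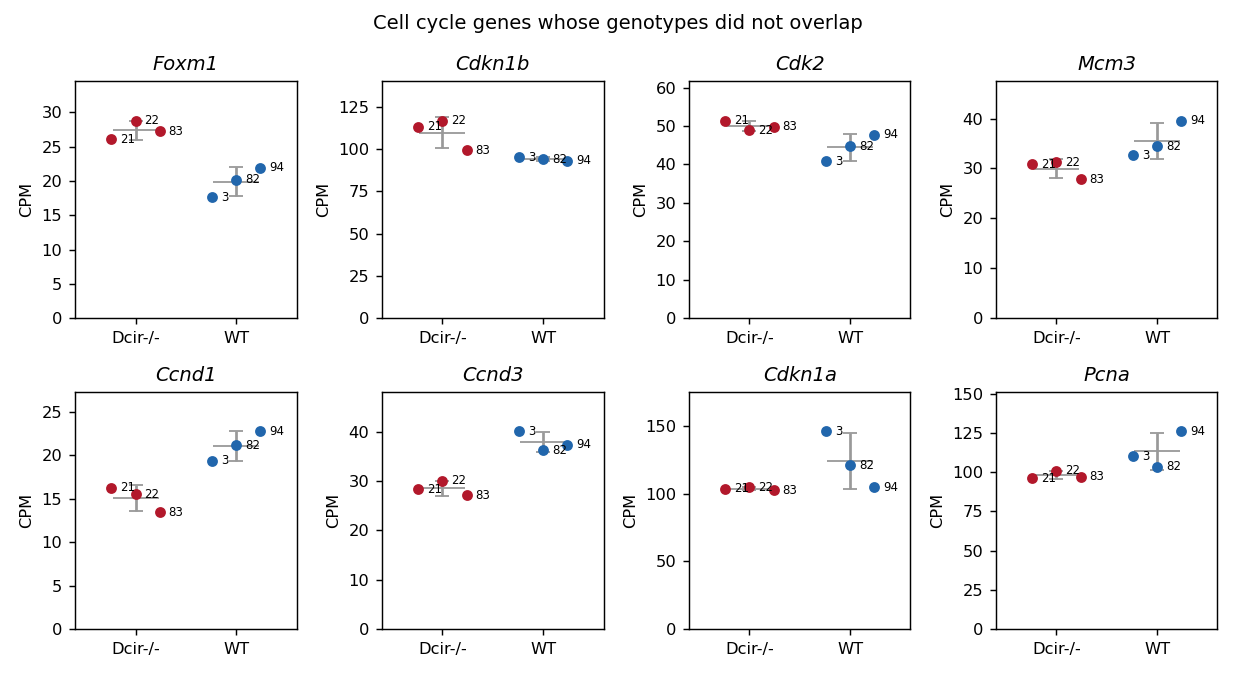
Each panel gives 1 of the 8 cell cycle genes whose Dcir-/- and WT values did not overlap, in CPM on an axis from 0; numbered points are libraries, and the line and bar are the mean and SD of 3 libraries. Foxm1, Cdkn1b and Cdk2 lie higher in Dcir-/- OCs, and Mcm3, Ccnd1, Ccnd3, Cdkn1a and Pcna lie lower; 0 of the 8 passed an adjusted p under 0.05 from limma.

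S phase genes gave means on either side of 0, with 6 of 13 higher and 7 lower in Dcir-/- OCs and a median log2 fold change of -0.04 (-0.12 without WT library 3 and 0.05 without WT library 94). WT library 94 was the highest of all 6 libraries for every one of the 13, and WT library 3 the lowest for 7. The 6 subunits of the MCM helicase, which unwinds DNA at replication forks, gave a higher mean for 3 and a lower mean for 3. Mcm3 was at 30.8, 31.3 and 27.9 CPM in Dcir-/- OCs, against 32.7, 34.4 and 39.6 CPM in WT OCs, with no overlap (log2 fold change -0.24, SE 0.10, adjusted p = 0.388 from limma). Mcm7 was at 51.3, 52.6 and 48 CPM in Dcir-/- OCs, against 34.8, 47.6 and 57.5 CPM in WT OCs, so that all Dcir-/- values fell inside a WT range of 1.65-fold (log2 fold change 0.14, SE 0.16). Mcm2, Mcm4, Mcm5 and Mcm6 had log2 fold changes of -0.10 to 0.03 (adjusted p of 0.737 to 0.976 from limma). Summed over the 6 subunits, which assemble into a ring, the level was 297, 318 and 296 CPM in Dcir-/- libraries 21, 22 and 83, against 258, 310.2 and 354 CPM in WT libraries 3, 82 and 94.

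Pcna, the sliding clamp of DNA polymerases, was at 96.3, 101 and 97.1 CPM in Dcir-/- OCs, against 110.3, 103 and 126 CPM in WT OCs. The genotypes did not overlap, and the log2 fold change was -0.20 (SE 0.09, adjusted p = 0.402 from limma). The genes of deoxynucleotide synthesis, Rrm1 and Rrm2 (the subunits of ribonucleotide reductase) and Tyms (thymidylate synthase), had Dcir-/- values inside the WT range. Rrm2 was at 31, 32.1 and 25.5 CPM in Dcir-/- OCs and at 22.5, 27.4 and 34.5 CPM in WT OCs, and Tyms at 9.98, 9.75 and 9.30 CPM in Dcir-/- OCs and at 6.89, 10.2 and 11.5 CPM in WT OCs. The regulators at the entry to S phase also differed little. E2f1 was at 24.1, 27.2 and 30 CPM in Dcir-/- OCs, against 28, 28.6 and 30.2 CPM in WT OCs, and the E-type cyclins Ccne1 and Ccne2 had log2 fold changes of -0.07 (SE 0.16) and -0.04 (SE 0.14).

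The mean of log2(CPM + 1) was higher in Dcir-/- OCs for 16 of the 17 G2/M genes and lower for Aurkb (in CPM the mean of Ube2c was lower too, at 27.7 in Dcir-/- OCs and 28 in WT OCs). Their log2 fold changes had a median of 0.10, and 0 passed the test (limma). WT library 3 was lower than every Dcir-/- library for all 17 genes. Of all tested genes, each Dcir-/- library was higher than WT library 3 for 55% to 56%. Against WT library 94, in contrast, Dcir-/- libraries 21, 22 and 83 were higher for 2, 7 and 2 of the 17. Of all tested genes, each was higher than WT library 94 for 48% to 48.8%. Without WT library 3 the median was -0.04, without WT library 94 it was 0.23, and without Dcir-/- library 22 it was 0.03. Each of these fits had 0 genes past the test. Without both WT libraries 3 and 94 the median was 0.09. Summed over the 17 genes, the level was 616, 703 and 609 CPM in Dcir-/- libraries 21, 22 and 83, against 506, 600 and 688 CPM in WT libraries 3, 82 and 94, and the WT sums enclosed all but Dcir-/- library 22.

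Foxm1, the transcription factor of the G2/M program, differed from the other 16 G2/M genes of the list in the order of its libraries. It was at 26.1, 28.8 and 27.3 CPM in Dcir-/- OCs, against 17.6, 20.2 and 21.9 CPM in WT OCs, with no overlap. Its log2 fold change of 0.44 (SE 0.11, 95% CI 0.20 to 0.69, adjusted p = 0.151 from limma) was the highest of the 38 genes. It ranged from 0.36 to 0.51 with any 1 library left out, when the adjusted p lay between 0.0694 (without WT library 94) and 0.514. Relative to the mean deviation of the other 16 G2/M genes, Foxm1 was at 0.17, 0.12 and 0.25 log2 units in Dcir-/- OCs, against -0.07, -0.16 and -0.31 in WT OCs. This comparison was chosen after the values were seen and was not tested. WT library 94, in which most G2/M genes were highest, had Foxm1 and also Mki67 below every Dcir-/- library. On mm10 Foxm1 spans 128362967 to 128376146 of chromosome 6, at 5.22 Mb from the deleted Clec4a2.

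Cdkn1b lies on chromosome 6 as well, at 11.78 Mb from Clec4a2, and Ccnd2 lies at 3.98 Mb. Of the tested genes with a known position that lie within 20 Mb of Clec4a2, 10 of 241 (4.15%) passed the test, against 51 of 13783 (0.37%) elsewhere, and genotypes did not overlap for 25.3% within the window and 19.7% elsewhere. Foxm1 and Cdkn1b, the only members of the list tested within that distance, are 2 of the 3 genes higher in every Dcir-/- library. DNA of the founder strain can stay linked to a deleted gene after backcrossing, and an effect of such DNA on Foxm1 or Cdkn1b cannot be told apart from the loss of DCIR in these data. Mcm2, at 34.21 Mb on the same chromosome, had Dcir-/- values of 26.8, 27.8 and 28.8 CPM inside the WT range of 25.7 to 30.9 CPM.

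The mitotic cyclins and their kinase showed the WT spread as well. Ccnb1 was at 28.1, 34.6 and 32.4 CPM in Dcir-/- OCs, against 20.6, 30.8 and 33.5 CPM in WT OCs, a log2 fold change of 0.18 (SE 0.17) that became -0.02 without WT library 3. Ccnb2 followed the same order, and Ccna2, at 43.1, 49.1 and 40.9 CPM in Dcir-/- OCs, lay inside the WT values of 36, 41.6 and 54.6 CPM. These genes encode the cyclins that activate CDK1. Cdk1 itself was at 35.6, 40.1 and 31.4 CPM in Dcir-/- OCs, against 28.7, 31.7 and 46.3 CPM in WT OCs, with a log2 fold change of 0.03 (SE 0.17).

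Kinases of mitosis and of the spindle checkpoint also had wide WT ranges. Plk1, which acts at centrosomes and kinetochores, was at 18.4, 23.6 and 21.6 CPM in Dcir-/- OCs, against 15.5, 19.7 and 27.8 CPM in WT OCs, and the 95% CI of its log2 fold change was -0.40 to 0.49. Aurka, the kinase of spindle poles, had a log2 fold change of 0.11 (SE 0.16), and Aurkb, the kinase of the chromosomal passenger complex, one of -0.04 (SE 0.13). Birc5, the survivin subunit of that complex, was at 25, 25.3 and 21 CPM in Dcir-/- OCs, against 16.4, 21.4 and 30.7 CPM in WT OCs. The WT libraries differed 1.86-fold in Birc5, the widest ratio of the tested genes of the list, whereas the Dcir-/- libraries differed 1.2-fold. The checkpoint kinase Bub1 and its relative Bub1b had log2 fold changes of 0.02 (SE 0.14) and 0.14 (SE 0.11).

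Most genes of anaphase and of the spindle had much the same order. Cdc20, the activator of the anaphase-promoting complex, was at 27.8, 31.7 and 31.8 CPM in Dcir-/- OCs, against 21, 28.2 and 36.3 CPM in WT OCs. Ube2c, the ubiquitin-conjugating enzyme of the same complex, was at 26.2, 31.2 and 25.6 CPM in Dcir-/- OCs, against 19.5, 28.6 and 35.9 CPM in WT OCs, and its log2 fold change ranged from -0.21 without WT library 3 to 0.22 without WT library 94. Their promoters hold both CHR and CCAAT letters, as printed above. The window of Mki67, whose order differed, also held both, and that of Birc5 held neither. A link of these letters to the order of libraries was not tested. Tpx2 and Kif11, which build the spindle, had log2 fold changes of 0.14 (SE 0.15) and 0.09 (SE 0.13). Top2a, which untangles sister chromatids, was at 95, 106 and 85.3 CPM in Dcir-/- OCs and at 81.1, 89 and 95.4 CPM in WT OCs. Mki67, the gene of the proliferation antigen Ki-67, was the only G2/M gene for which WT library 3 was not the lowest. It was at 103, 118 and 108 CPM in Dcir-/- OCs, against 97.1, 106 and 93.5 CPM in WT OCs, with a log2 fold change of 0.15 (SE 0.08, 95% CI -0.05 to 0.34, adjusted p = 0.543 from limma).

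**Figure D4:**
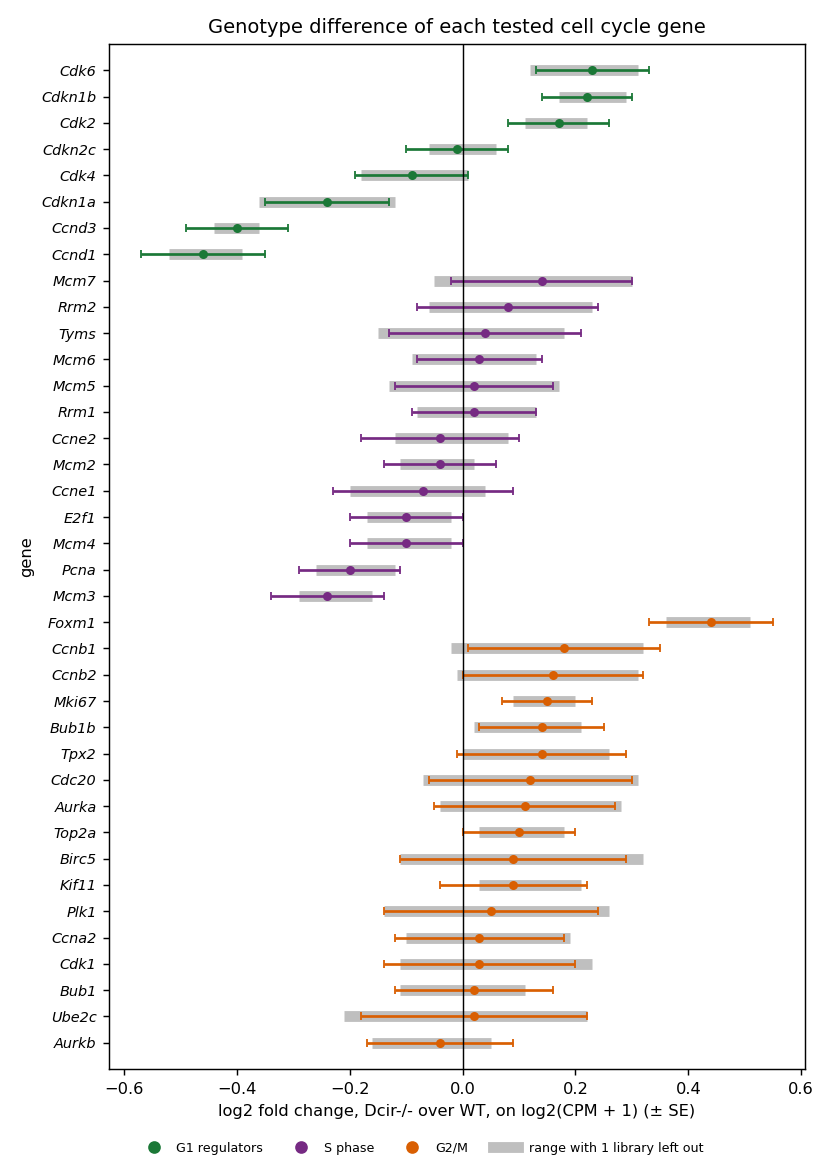
Points give the log2 fold change of each tested cell cycle gene, Dcir-/- over WT OCs on the log2(CPM + 1) scale, with 1 SE, and grey bars the range of the estimates with each library left out in turn. Of the 38 grey bars, 22 cross 0. Those of Foxm1, Cdkn1b, Cdk2, Cdk6, Mki67, Bub1b, Tpx2 (lowest 0.0), Top2a and Kif11 on the higher side do not. On the lower side, those of Ccnd1, Ccnd3, Cdkn1a, Mcm3, Pcna, Mcm4 and E2f1 do not.

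Other genes of the cell cycle were counted from 10 further lists, which hold 207 genes of the table, of which 206 were tested. Again 0 passed an adjusted p under 0.05 from limma, 10 (4.85%) had an unadjusted p under 0.05 from limma, and genotypes did not overlap for 24 (11.7%), both below the shares of all tested genes given above. The mean was higher in Dcir-/- OCs for 110 and lower for 96, with a median log2 fold change of 0.01. WT library 3 was the lowest for 92 of the 206 (44.7%) and WT library 94 the highest for 95 (46.1%). Among the 41 spindle, kinetochore and checkpoint genes, WT library 3 was the lowest for 27 (65.9%, against 31.2% of all tested genes). Their mean deviation was 0.01, 0.14 and -0.03 log2 units in Dcir-/- libraries 21, 22 and 83. In WT libraries 3, 82 and 94 it was -0.19, -0.03 and 0.11. Medians of the further lists were not taken with a library left out. Spindle, kinetochore and checkpoint genes had the higher mean in Dcir-/- OCs for 30 of 41 (median 0.08), with the spindle pole gene Aspm at 0.30 (SE 0.11, adjusted p = 0.306) and the motor gene Kif14 at 0.33 (SE 0.13, adjusted p = 0.340 from limma). Genes of chromosome condensation and cohesion had it for 13 of 18 (median 0.06), with the condensin subunit gene Ncapg2 at -0.62 (SE 0.18, adjusted p = 0.216) and Ncapd3 at 0.27 (SE 0.10, adjusted p = 0.318 from limma). Ncapg2 was at 29.6, 33.1 and 32.2 CPM in Dcir-/- OCs, against 67.4, 43.6 and 40 CPM in WT OCs, with its highest value in WT library 3, unlike the other condensin gene. Genes of cytokinesis and centrosome duplication had a higher mean for 9 of 14 (median 0.07), among them Anln at 0.17 (SE 0.11) and Cep55 at 0.25 (SE 0.18).

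Lists of DNA replication were counted in the same way. Origin recognition and licensing genes had the higher mean in Dcir-/- OCs for 8 of 13 (median 0.05), with the origin subunit gene Orc2 at 0.20 (SE 0.09) and the loading factor gene Cdc6 at -0.27 (SE 0.14). Replication fork genes had it for 14 of 33 (median -0.02), with the polymerase gene Pole at 0.19 (SE 0.11) and the clamp loader gene Rfc2 at 0.15 (SE 0.10). Genes of nucleotide supply had it for 5 of 15 (median -0.03), with the deoxycytidine kinase gene Dck at -0.48 (SE 0.22) and the purine synthesis gene Paics at -0.12 (SE 0.07). Adjusted p of these 6 genes lay between 0.403 and 0.589 (limma). The remaining lists hold regulators of the cycle. The E2F, Rb and DREAM factors had a higher mean for 7 of 19 (median -0.09), with the E2F partner gene Tfdp2 at 0.31 (SE 0.11, adjusted p = 0.324) and the retinoblastoma gene Rb1 at -0.32 (SE 0.16, adjusted p = 0.481 from limma). Other cyclins, CDKs and inhibitors had it for 10 of 21 (median -0.02), with the CDK phosphatase gene Cdc25b at 0.29 (SE 0.09, adjusted p = 0.256) and Skp2, which marks p27 for destruction, at -0.21 (SE 0.12, adjusted p = 0.550 from limma). Cdc25b, which acts before mitosis, was at 41.7, 41.3 and 43.6 CPM in Dcir-/- OCs, against 31.2, 34.9 and 37.2 CPM in WT OCs, with no overlap. Ubiquitin ligases of the cycle had it for 8 of 17 (median -0.01), with Cdc23 at 0.16 (SE 0.10) and Anapc11 at -0.14 (SE 0.09). Genes of p53 targets and growth arrest had it for 7 of 16 (median -0.03), with Trp53inp1 at 0.34 (SE 0.10, adjusted p = 0.204) and the stress gene Sesn1 at -0.41 (SE 0.14, adjusted p = 0.281 from limma).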

How the data were processed

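Poly-A RNA of the 6 OC samples was sequenced from stranded libraries, and samples were grouped by the genotype in their labels. Per the labels, Trim Galore 0.6.6 and HISAT2 2.2.0 were used with mm10; the authors then counted reads on exons (Rsubread) and compared groups with edgeR. The deposited table holds a signal per library, namely counts brought by the authors to similar totals (95.8% to 99.8% are not whole within 1e-06). Its columns of the authors' own comparison, a log2 fold change with an adjusted p-value, were not used. No source used here gives the annotation or the strandedness of counting.

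Because the values are not raw counts, limma 3.58.1 with a trend (R 4.3.3) was applied, as planned for such a file, to log2(CPM + 1). Genes needed at least 1 CPM in 3 libraries, genotype was the only term, and Benjamini-Hochberg adjustment covered 14047 genes. Fold changes on this scale understate those of low genes. Depth is unknown, so precision rests on the spread of 3 libraries per group. The fit was tested on simulated data first. Positions came from GENCODE M21 on mm10 (21449 of 21492 identifiers matched), and 15 of the 39 genes share exon sequence with another gene.

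The cell cycle genes, 10 pathway lists and 11 lists of cell type markers were chosen with earlier results of these data known. Named are all 39 genes and, in each pathway list, the 2 genes with the smallest p. Alternatives were 2 filters, 2 scalings, 2 pseudocounts, robust and weighted fits, another threshold, each library left out, and, added after the data were seen, WT libraries 3 and 94 left out together. Of the experiments in the study, only RNA-seq was analysed.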

Additional observations from a re-analysis of the deposited data

How the results depend on the processing

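Under all alternatives 0 of the cell cycle genes and 0 of the other pathway genes passed the test (limma), and the smallest adjusted p among the 38 genes lay between 0.0694 and 0.45 (limma). The number at an unadjusted p under 0.05 from limma was 5 in the main fit (13.2%, against 12.5% of all tested genes). It was 3 to 10 under the alternatives, with 10 only without WT library 94. The share of all tested genes under the alternatives was not counted. Over all genes, 62 passed; 112 did at an adjusted p under 0.1, 33 with a filter of 5 CPM, 41 with a pseudocount of 5 CPM, 39 with array weights, 51 without both WT libraries 3 and 94, and 2 (without Dcir-/- library 22) to 126 (without WT library 3) with 1 library left out. With 1 library left out, the median log2 fold change of the G1 regulators was -0.09 to 0.04, that of the S phase genes -0.12 to 0.05 and that of the G2/M genes -0.04 to 0.23. Of the 38 genes, 16 kept their direction whichever library was left out, and 22 did not. For these the log2 fold change ranged from -0.02 to 0.32 for Ccnb1, -0.01 to 0.31 for Ccnb2, -0.18 to 0.01 for Cdk4, -0.05 to 0.30 for Mcm7, -0.07 to 0.31 for Cdc20, -0.04 to 0.28 for Aurka, -0.20 to 0.04 for Ccne1, -0.06 to 0.23 for Rrm2, -0.11 to 0.02 for Mcm2, -0.16 to 0.05 for Aurkb, -0.11 to 0.32 for Birc5, -0.12 to 0.08 for Ccne2, -0.09 to 0.13 for Mcm6, -0.21 to 0.22 for Ube2c, -0.15 to 0.18 for Tyms, -0.11 to 0.11 for Bub1, -0.10 to 0.19 for Ccna2, -0.06 to 0.06 for Cdkn2c, -0.14 to 0.26 for Plk1, -0.08 to 0.13 for Rrm1, -0.11 to 0.23 for Cdk1 and -0.13 to 0.17 for Mcm5. The cause was not tested. With both libraries 3 and 94 left out, WT OCs are 1 library, which the fit assumes to vary like the others, and 6 of the 38 genes turned direction. The filters, scalings, pseudocounts and fits turned the direction of 0 of the 38 genes. No paired analysis was possible because the Dcir-/- and WT libraries share no replicate number. DESeq2 and its size factors were not run because the table holds no raw counts.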

Other observations

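Further marker lists of blood and tissue cells gave sums below those of the OC and macrophage lists in every library. The 3 tested erythroid and megakaryocyte markers were lower on average in Dcir-/- OCs, and the platelet factor gene Pf4 passed the test with a log2 fold change of -1.49 (adjusted p = 0.00223 from limma), while Klf1, Epor and Alas2 were under 1 CPM in every library. That list summed to 20 to 26.9 CPM in Dcir-/- OCs and to 72.3, 43.4 and 46.3 CPM in WT libraries 3, 82 and 94. Dendritic cell markers summed to 92.8 to 125 CPM in Dcir-/- OCs and to 80.2 to 167 CPM in WT OCs, with Flt3 and Clec9a under 1 CPM in every library. T and NK cell markers summed to 7.37 to 7.52 CPM in Dcir-/- OCs and to 8.73 to 9.04 CPM in WT OCs, nearly all of it from Trac (7.05 to 7.16 CPM in Dcir-/- OCs and 8.04 to 8.37 CPM in WT OCs), with Cd3d, Lck, Nkg7 and Klrb1c under 1 CPM in every library. B cell and plasma cell markers summed to 1.61 to 2.49 CPM in Dcir-/- OCs and to 3.70 to 4.11 CPM in WT OCs. Mast cell and basophil markers summed to under 0.5 CPM in every library. Markers of stroma and osteoblasts summed to 10.8 to 11.5 CPM in Dcir-/- OCs and to 12.9 to 14.3 CPM in WT OCs, most of it from Runx2 (8.81 to 9.29 CPM in Dcir-/- OCs and 9.89 to 11.2 CPM in WT OCs), with Col3a1, Dcn and Bglap under 1 CPM throughout. Among the genes of these lists Pf4 was the only one that passed the test (limma).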
